A study of Mus musculus with 6 samples.

Results

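Ch25h and 5 genes that act around it in oxysterol metabolism, Cyp7b1, Cyp27a1, Hsd3b7, Gpr183 and Soat1, were described across 6 libraries of cultured mouse macrophages. They were chosen by name as a pathway, with earlier results of these libraries known, above all the low Ch25h count after regorafenib in M0 and M2 cells, so that their ratios here are a description and carry no test. All 6 genes were found by their Ensembl identifiers among the 54446 gene identifiers of the deposited count table. RNA-seq was run on bone marrow-derived macrophages (BMDMs) of male BALB/c mice aged 6 to 8 weeks. Marrow cells of all groups were grown for 7 days in medium with 20% L929-conditioned medium, a source of macrophage growth factor, so no group is without that factor.

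M0 cells received no polarizing cytokine, M1 cells received IFN-γ at 20 ng/mL with LPS at 50 ng/mL for 24 hours, and M2 cells received IL4 at 20 ng/mL for 24 hours. Each state had a control library (DMSO, the drug's solvent) and a regorafenib library. Regorafenib is a multikinase inhibitor used against liver, colorectal and gastrointestinal stromal tumors, and it was given at 1 µM for 1 hour before polarization as the study describes for M1 and M2 cells. Its dose and timing in the M0 library are not given separately in the sources used here. Each of the 6 conditions had 1 library. Whether the libraries came from the same mice, or from how many, is not given in the sources used here. No value below therefore has a biological error, and every interval printed is a 95% interval of counting error only, which does not cover the difference between cultures.

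Oxysterols are oxidized forms of cholesterol. In macrophages Ch25h, an enzyme gene switched on by interferon and by Toll-like receptor ligands, makes 25-hydroxycholesterol, which holds back cholesterol synthesis through the SREBP pathway and activates the liver X receptors (LXRs). Cyp7b1 and then Hsd3b7 turn 25-hydroxycholesterol into further products, of which the 7α-hydroxylated form attracts cells that bear EBI2, the receptor encoded by Gpr183. Cyp27a1 makes 27-hydroxycholesterol in mitochondria, and Soat1 stores cholesterol as esters.

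The 6 members lie on 5 chromosomes of the mouse genome build GRCm38, by the Gencode M21 annotation. Ch25h (ENSMUSG00000050370.4 in the count table) is a single exon of 1387 bases at chr19:34473778-34475164 on the minus strand. Cyp27a1 (chr1:74713574-74737892, plus strand) and Soat1 (chr1:156424525-156474331, minus strand) share a chromosome and lie far apart on it. Cyp7b1 lies at chr3:18071950-18243338 on the minus strand, Hsd3b7 at chr7:127800604-127803802 on the plus strand and Gpr183 at chr14:121952551-121965195 on the minus strand.

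The sequences just before the starts of Ch25h and Cyp27a1 are shown because these genes had the most strongly opposed ratios among the members. They are RefSeq promoter windows of build GRCm38.p6, cut before the first annotated base of the gene and written 5′ to 3′ on the gene's own strand, with a full CREB site (TGACGTCA, the binding sequence known for Creb1) in capitals. The stretch of Ch25h is chr19:34475165-34475398, minus strand, and that of Cyp27a1 is chr1:74713285-74713534, plus strand.
Ch25h: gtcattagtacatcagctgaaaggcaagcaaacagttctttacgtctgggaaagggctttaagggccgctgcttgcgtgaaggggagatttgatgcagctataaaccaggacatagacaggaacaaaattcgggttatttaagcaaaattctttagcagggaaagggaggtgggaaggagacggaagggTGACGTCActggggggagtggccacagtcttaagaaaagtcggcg
Cyp27a1: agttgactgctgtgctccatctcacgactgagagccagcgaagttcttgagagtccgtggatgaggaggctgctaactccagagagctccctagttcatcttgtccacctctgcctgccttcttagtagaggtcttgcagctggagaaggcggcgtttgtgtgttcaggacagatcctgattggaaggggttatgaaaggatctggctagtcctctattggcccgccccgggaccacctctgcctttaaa

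The full CREB site was found once, in the Ch25h window, at position -61 from the RefSeq start (chr19:34475202-34475209). Of 32851 RefSeq windows of the same length, 300 bases each, 1.79% held it. The windows of Cyp27a1, Hsd3b7, Gpr183 and Soat1 did not hold these letters, and no window for Cyp7b1 was in the table. Exact matches on both strands were also sought for the shorter CRE core TGACG, which lies within the full site and is held by 20.8% of windows, and for an ISRE-like GAAANNGAAA (3.44%), a GAS-like TTCNNNGAA (8.30%), a STAT6-like TTCNNNNGAA (6.95%) and an AP-1-like TGANTCA (7.81%). The core was found in Ch25h, within the full site, and in Soat1, at position 4 after its start. Hsd3b7 held a GAS-like match at position -21. Cyp27a1 and Gpr183 held none of these motifs, and the Ch25h window held neither an ISRE-like nor a GAS-like match. A match describes letters in a window and is not a measured binding site.

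The libraries held between 25359309 and 34898342 counts, with TMM scaling factors from 0.820 to 1.12. All 8 macrophage markers were detected, with a summed level of 20505 to 45807 CPM (counts scaled to a common library size, with TMM factors). Most of this sum was Lyz2, at 16711 CPM in M2 control and 42740.5 in M0 with regorafenib. Other markers differed between states, with Adgre1 at 635 CPM in M0 control and 6120 in M1 control, and Cd68 at 1294 and 348. Nos2, the nitric oxide synthase of IFN-γ and LPS activated macrophages, had 410649 counts in M1 control, 221627 in M1 with regorafenib and 39 to 50 elsewhere. The other IFN-γ and LPS markers were higher in count with regorafenib than in M1 control, which is given first, at 10147 and 26829 counts for Il12b, 8957 and 15600 for Cd40 and 15565 and 16548 for Cxcl9. Mrc1, the mannose receptor of IL4-activated macrophages, had 24237 counts in M2 control, 12895 in M2 with regorafenib and 9 to 805 elsewhere. The other IL4 markers ran both ways with regorafenib in M2, with M2 control given first. Arg1 had 21798 and 1017 counts and Mgl2 2017 and 305, while Retnla was higher, at 941 and 3348. The part of these differences in the members' values was not tested. Of markers of other cells, Ly6g of neutrophils was at 0 in every library while Mpo had 2479 counts in M0 control, 5124 in M0 with regorafenib and 2064 to 3646 elsewhere, and S100a8 had 1804 and 489 in the M1 libraries and 39 to 123 elsewhere. The 7 neutrophil genes summed to 84.8 CPM in M0 control and 158 in M0 with regorafenib, and the other libraries lay between. The 6 fibroblast genes likewise summed to 3.19 CPM in M0 control and 10.2 in M0 with regorafenib, with the other libraries between. Of the T cell list 4 of 5 genes, Cd3e among them, were at 0 in every library, and the list summed to at most 0.667 CPM. Of B cell genes, Ms4a1 was at 0 in every library and Cd79b had at most 4 counts, while Ighm, an immunoglobulin heavy chain gene, had 87 and 153 counts in M0 control and M0 with regorafenib, 8 and 0 in M1, and 63 and 81 in M2. Dendritic cell genes summed to 32.1 and 39.0 CPM in the M1 libraries, nearly all from Ccr7 and Xcr1, and to 0.334 to 2.54 CPM elsewhere, with Siglech at 0 in all. The part of these levels in the members' values was not tested.

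Ch25h was the member that moved furthest. Its counts were 405 in M0 control, 34 in M0 with regorafenib, 2834 in M1 control, 1870 in M1 with regorafenib, 678 in M2 control and 4 in M2 with regorafenib. On the CPM scale these were 13.2, 1.03, 110, 77.6, 18.6 and 0.143. Both M1 libraries were highest and both regorafenib libraries of M0 and M2 lowest, and no library's counting interval overlapped that of its neighbor in the order. Highest and lowest library stood 767-fold apart. In bulk RNA, fewer cells with a transcript and less transcript per cell cannot be told apart.

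**Figure D1:**
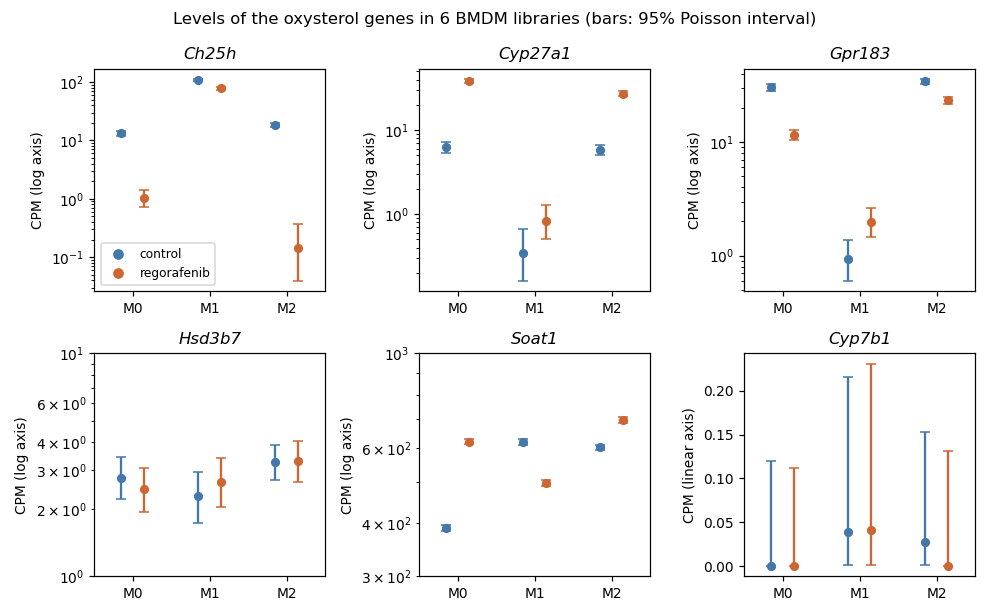
Levels of the 6 members in each of the 6 BMDM libraries (M0, M1 and M2 on the horizontal axis, blue for control and orange for regorafenib), in TMM-scaled CPM on a log axis, or on a linear axis for Cyp7b1, whose points rest on at most 1 count. Bars are 95% Poisson intervals of counting error. Ch25h is lowest with regorafenib, at 1.03 CPM in M0 and 0.143 CPM in M2, and Cyp27a1 is highest in these same libraries, at 38.7 and 27.1 CPM.

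With regorafenib, the log2 ratio of Ch25h was -3.68 in M0 (95% interval -4.23 to -3.17), a level 12.8-fold lower. In M2 it was -7.02 (-8.90 to -5.66), a level 130-fold lower that rests on 4 counts. This was the lowest ratio of the 13813 genes with at least 10 counts in the M2 pair. With 1 CPM added to both values, the M2 ratio was smaller in size and lay outside its printed interval. In M1 the ratio was -0.50 (-0.58 to -0.41), which is 1.41-fold lower and under the 2-fold mark used to call a gene here. The interval in M1 did not reach those of M0 and M2, and the difference between states was not tested, since each condition had 1 library. As a level per kilobase of exon, Ch25h stood at percentile 95.04 of genes with at least 10 counts in M1 control and at percentile 18.0 in M0 with regorafenib.

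A noncoding gene that starts within the Ch25h exon, on the opposite strand, was also highest in the M1 libraries and lowest with regorafenib in M0 and M2. Gm26902 (ENSMUSG00000097558.1, chr19:34474808-34481546) is annotated as a bidirectional promoter lncRNA, and 159 of the bases of the Ch25h exon (11.5%) are also exon of Gm26902. It was added after its values were seen. Its counts were 45 in M0 control, 12 in M0 with regorafenib, 283 in M1 control, 173 in M1 with regorafenib, 39 in M2 control and 3 in M2 with regorafenib. Unlike Ch25h, it was no higher in M2 control (1.07 CPM) than in M0 control (1.46 CPM), with overlapping intervals. Its log2 ratio with regorafenib was -2.01 in M0 (-3.06 to -1.07), -0.61 in M1 (-0.89 to -0.33) and -3.32 in M2 (-5.65 to -1.66). The M2 ratio rests on 3 counts, which is the floor used here, so its size is uncertain. Ch25h had 9.0 counts per Gm26902 count in M0 control, 10.01 in M1 control and 10.8 in M1 with regorafenib, but 17.4 in M2 control and 2.83 in M0 with regorafenib. In M2 with regorafenib that ratio was 1.33 (0.226 to 9.10). The library kit marks strand, but which strand was counted is not given in the sources used here. Whether reads of the shared bases were counted for either gene or left out of both is thus not known.

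Cyp27a1, the mitochondrial sterol 27-hydroxylase, ran the other way. Its counts were 192 in M0 control, 1277 in M0 with regorafenib, 9 in M1 control, 20 in M1 with regorafenib, 213 in M2 control and 757 in M2 with regorafenib. The M0 and M2 regorafenib libraries were highest and both M1 libraries lowest. Its levels in M0 control (6.25 CPM) and M2 control (5.83 CPM) did not differ beyond counting error, and those of both M1 libraries (0.348 and 0.830 CPM) had overlapping intervals. With regorafenib the log2 ratio was 2.63 in M0 (2.41 to 2.86), a 6.20-fold higher level, and 2.21 in M2 (1.99 to 2.44), a 4.64-fold higher level. The M1 ratio of 1.25 (0.052 to 2.57) passed the 2-fold mark on 20 against 9 counts.

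Set against each other within a library, where no scaling between libraries enters, both hydroxylase genes changed places. This comparison was chosen after their values were seen. Per kilobase of exon, Ch25h exceeded Cyp27a1 3.30-fold in M0 control (2.78 to 3.94), 493-fold in M1 control (260 to 1080), 146-fold in M1 with regorafenib (94.6 to 240) and 4.99-fold in M2 control (4.27 to 5.84). In the other two libraries Cyp27a1 exceeded Ch25h, 24.0-fold in M0 with regorafenib and 121-fold in M2 with regorafenib. The 3 control libraries and the M1 regorafenib library thus lay on the Ch25h side.

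**Figure D2:**
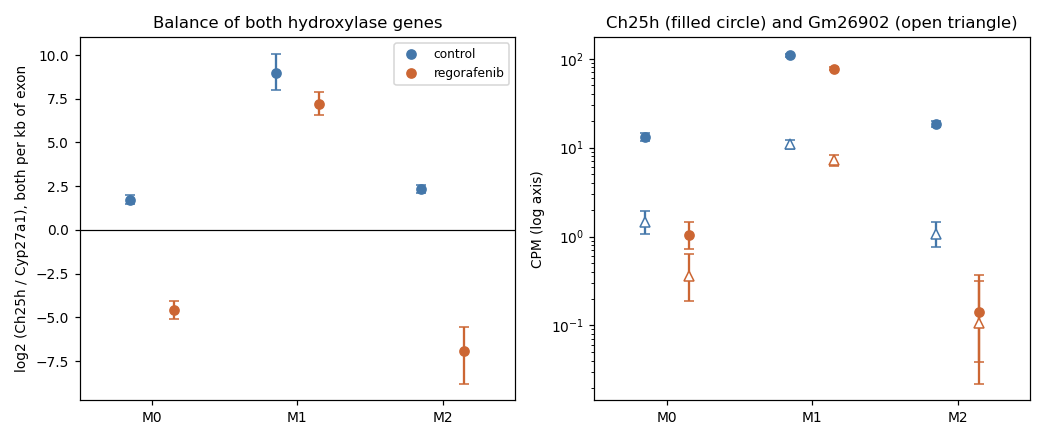
Left, the log2 ratio of Ch25h to Cyp27a1, both per kilobase of exon, in each library, where the line at 0 marks equal levels. M0 and M2 with regorafenib lie below 0 at -4.58 and -6.92 and the other libraries above it. Right, TMM-scaled CPM (log axis) of Ch25h (filled circles) and of its neighbor Gm26902 (open triangles) in blue for control and orange for regorafenib, with both genes highest in M1 and lowest in M2 with regorafenib, and with bars for the 95% intervals of counting error in both plots. For Gm26902 the interval in M2 with regorafenib, on 3 counts, overlaps that in M0 with regorafenib.

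The enzymes that act on 25-hydroxycholesterol were scarce or level. Cyp7b1, the oxysterol 7α-hydroxylase, had 0, 0, 1, 1, 1 and 0 counts in M0 control, M0 with regorafenib, M1 control, M1 with regorafenib, M2 control and M2 with regorafenib. All libraries were at or below the floor of 3 counts, which corresponds to 0.0822 to 0.124 CPM, so its level was not measurable at this depth and no fold is given. Hsd3b7, the 3β-hydroxysteroid dehydrogenase of bile acid synthesis, had 85, 81, 59, 64, 119 and 92 counts in the same order. Its levels, 2.28 to 3.29 CPM, had overlapping intervals between all neighbors in the order. Its log2 ratios with regorafenib were -0.17 in M0 (-0.63 to 0.28), 0.22 in M1 (-0.32 to 0.75) and 0.01 in M2 (-0.40 to 0.42), counting intervals that leave out a 2-fold difference in either direction. Its absolute level is uncertain: 62.0% of its exon bases are also exon of the readthrough gene Gm49388 on the same strand, which had 0 counts in every library, and 62.4% are exon of 9430064I24Rik on the opposite strand, which had 2 to 6 counts.

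Gpr183, the EBI2 receptor that guides cells along 7α,25-dihydroxycholesterol, was higher in M0 and M2 libraries than in M1. Its counts were 938 in M0 control, 386 in M0 with regorafenib, 24 in M1 control, 48 in M1 with regorafenib, 1258 in M2 control and 656 in M2 with regorafenib. Both M1 libraries were lowest, at 0.929 and 1.99 CPM against 11.7 to 34.5 CPM elsewhere, and no neighbors in the order had overlapping intervals. With regorafenib its log2 ratio was -1.38 in M0 (-1.56 to -1.21) and -0.56 in M2 (-0.69 to -0.42), but 1.10 in M1 (0.36 to 1.87) on 48 against 24 counts. Gpr183 is known from B cells. Of B cell genes Ms4a1 was at 0 in all libraries, but Ighm, at 63 to 153 counts in M0 and M2 and 8 and 0 in M1, was also lowest in M1, and its part in the Gpr183 values was not tested. It lies inside Ubac2 on the opposite strand with no shared exon bases.

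Soat1, the acyl-CoA:cholesterol acyltransferase of macrophages, had the highest CPM of the members in every library. It had 11955 counts in M0 control, 20474 in M0 with regorafenib, 15982 in M1 control, 11964 in M1 with regorafenib, 22001 in M2 control and 19520 in M2 with regorafenib. Per kilobase of exon it lay at 39.7 to 71.3 CPM, at percentiles 92.0 to 96.0 of genes with at least 10 counts, and on that scale Ch25h was above it in both M1 libraries (79.1 against 63.2 in control and 55.9 against 50.7 with regorafenib). M0 control was lowest, and the interval of M1 control overlapped those of M0 with regorafenib and of M2 control, which did not overlap each other. Its log2 ratio with regorafenib was 0.67 in M0 (0.64 to 0.71), -0.32 in M1 (-0.35 to -0.28) and 0.21 in M2 (0.18 to 0.24), all under the 2-fold mark.

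**Figure D3:**
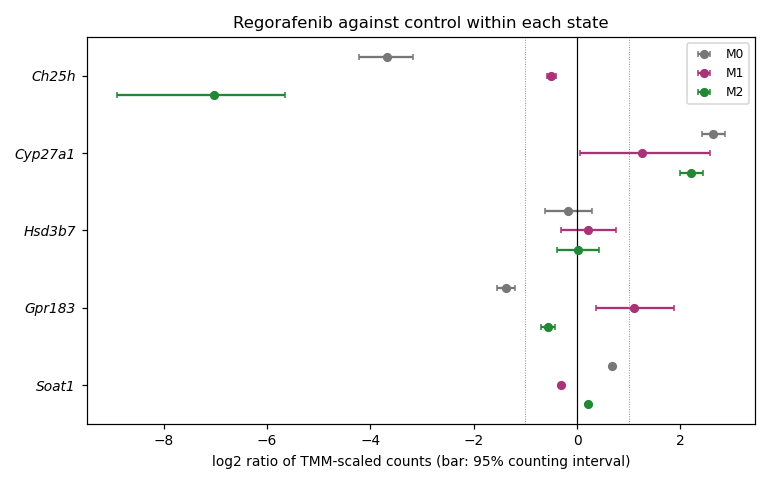
Log2 ratio of regorafenib to control in M0 (gray), M1 (purple) and M2 (green) for the 5 members with at least 10 counts, with 95% intervals of counting error as bars and dotted lines at the 2-fold mark. Ch25h lies at -3.68 and -7.02 in M0 and M2 while Cyp27a1 lies at 2.63 and 2.21, and Hsd3b7 lies near 0 in each state.

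Counted over the 5 members that reached 10 counts in a compared pair, 1 was at least 2-fold higher with regorafenib in M0 (Cyp27a1), where 9.47% of all genes measured were, and 2 were at least 2-fold lower (Ch25h and Gpr183), beside 10.9% of all genes. In M1, 2 were higher (Cyp27a1 and Gpr183) beside 1.76% of all genes, and 0 were lower beside 3.46%. Both M1 calls rest on fewer than 50 counts. In M2, 1 was higher (Cyp27a1) beside 6.15% of all genes and 1 lower (Ch25h) beside 5.07%. Nothing is read from these shares, because the members were chosen with these ratios known.

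Ch25h was higher in M1 than in M0, and Cyp27a1 and Gpr183 were lower. Between control libraries, the M1 to M0 log2 ratio was 3.06 for Ch25h (2.91 to 3.21), an 8.32-fold higher level. For Cyp27a1 it was -4.17 (-5.32 to -3.21), a 17.9-fold lower level, and for Gpr183 -5.04 (-5.69 to -4.46), a 32.9-fold lower level. Hsd3b7 had -0.28 (-0.78 to 0.22) and Soat1 0.67 (0.63 to 0.70). Thus 1 of 5 members was higher, beside 17.4% of all genes, and 2 were lower, beside 19.7%. By total counts in place of TMM, the median of all genes moved by -0.44 in this comparison, and the split over all genes went from 2465 higher and 2798 lower to 1798 higher and 4131 lower. The same members passed the 2-fold mark under both scalings.

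Between regorafenib libraries, Ch25h stood further from M0 in M1 than between controls and Gpr183 nearer, while the intervals of Cyp27a1 overlapped, and these differences were not tested. The log2 ratio was 6.23 for Ch25h (5.75 to 6.77), a 75.2-fold higher level, and -5.54 for Cyp27a1 (-6.26 to -4.91), a 46.7-fold lower level. Gpr183 had -2.56 (-3.02 to -2.12), 5.88-fold lower. Soat1, higher in M1 control than in M0 control, was lower here, at -0.32 (-0.36 to -0.29). Hsd3b7 had 0.11 (-0.38 to 0.60), which turned to -0.30 by total counts. Of 5 members 1 was higher beside 16.3% of all genes and 2 were lower beside 21.6%. Here total counts moved the median of all genes by -0.41 and gave 1680 higher and 4378 lower genes.

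In control cells, each measured member was within 2-fold of its M0 level in M2. The M2 to M0 log2 ratio was 0.49 for Ch25h (0.31 to 0.68), -0.10 for Cyp27a1 (-0.39 to 0.19), 0.24 for Hsd3b7 (-0.18 to 0.66), 0.17 for Gpr183 (0.05 to 0.30) and 0.63 for Soat1 (0.60 to 0.66). Thus 0 were higher, beside 4.69% of all genes, and 0 lower, beside 7.61%. Between regorafenib libraries Ch25h was lower in M2 at -2.85 (-4.81 to -1.36), on 4 against 34 counts. Gpr183 was 2.003-fold higher (log2 interval 0.82 to 1.19), just over the 2-fold mark, and under it by total counts. Cyp27a1 had -0.52 (-0.65 to -0.39), Hsd3b7 0.42 (-0.03 to 0.87) and Soat1 0.17 (0.14 to 0.20). Here 1 of 5 members was higher, beside 4.41% of all genes, and 1 lower, beside 5.18%. The comparisons with M0 share their M0 library within a treatment, and each M0 library also enters the regorafenib comparison, so these ratios are not independent of each other.

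**Figure D4:**
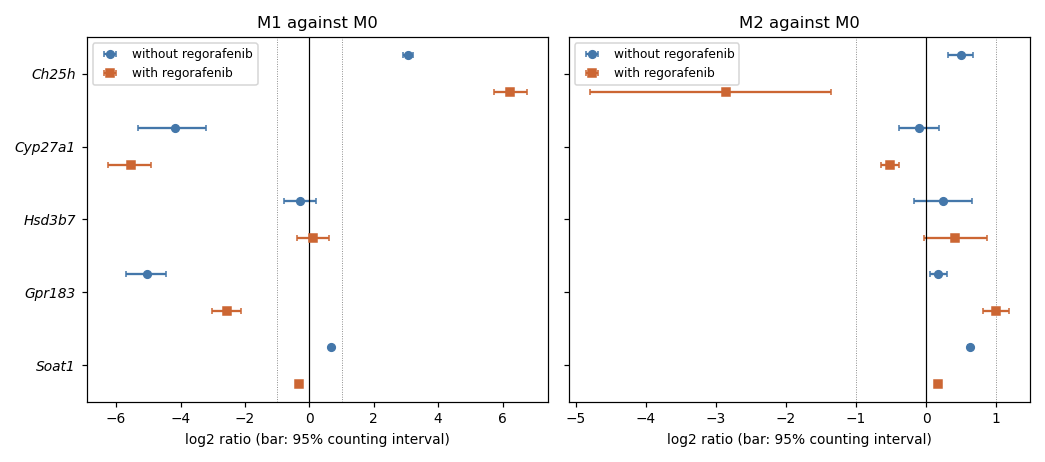
Log2 ratio of M1 to M0 (left) and M2 to M0 (right) for the 5 members with at least 10 counts, without regorafenib (blue circles) and with it (orange squares), with 95% intervals of counting error as bars and dotted lines at the 2-fold mark. Ch25h is higher in M1 at 3.06 and 6.23, whereas in M2 it is at 0.49 without the drug and -2.85 with it.

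Around the members, lists of pathway genes were counted in the same way (8 genes sit in more than 1 list). The shares of all genes to set beside the counts with regorafenib are, for M0, 9.47% higher and 10.9% lower. For M1 they are 1.76% higher and 3.46% lower, and for M2 6.15% higher and 5.07% lower. Among the other enzymes of oxysterol and bile acid synthesis, 9 of 21 reached 10 counts in M0 and 1 was higher and 0 lower with regorafenib, with a median log2 ratio of 0.48. In M1 0 were higher and 1 lower of 8 (median 0.10), and in M2 1 was higher and 0 lower of 8 (median 0.24). The M1 call was Hsd11b1, on 8 against 18 counts. The genes called higher were low ones, named after their values were seen: Cyp46a1, the brain 24-hydroxylase, with 11 against 2 counts in M0, and Cyp39a1, which acts on 24-hydroxycholesterol, with 28 against 7 counts in M2. Cyp7a1, the rate-limiting enzyme of bile acid synthesis, had 0 counts in the M0 and M2 pairs, and Hsd17b4, a peroxisomal side-chain enzyme, had log2 ratios of 0.48 in M0 and 0.30 in M2.

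Of the oxysterol sensors and carriers, 4 of 25 were higher with regorafenib in M0 and 0 lower (median 0.16), 0 of 23 passed the mark in M1 (median -0.09), and 2 of 24 were higher in M2 (median 0.03). The sterol-binding nuclear receptor gene Rora had 225 counts in M0 control and 826 with regorafenib, a log2 ratio of 1.77. For Osbpl5, an oxysterol-binding protein relative, the value was 1.19 in M0 and 1.38 in M2, and Stard5, a carrier of cholesterol and 25-hydroxycholesterol, had 1.06 in M0. The LXR genes themselves were under the mark in both states, Nr1h3 at -0.29 and -0.31 and Nr1h2 at 0.67 and 0.24.

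Of 14 LXR targets measured, 5 were higher and 3 lower with regorafenib in M0 (median 0.59), 0 passed the mark in M1 (median 0.011, or -0.0079 by upper quartile scaling), and 3 were higher and 0 lower in M2 (median 0.21). Apoe, the apolipoprotein that accepts cholesterol, had 1184 counts in M0 control and 41460 with regorafenib, a log2 ratio of 5.03, and in M2 1018 and 7659, a log2 ratio of 3.30. Abca1, the cholesterol exporter, had 513 and 2520 counts in M0 (log2 ratio 2.19) and 172 and 730 in M2 (2.47). Mylip, which marks the LDL receptor for degradation, had 1.64 in M0, and Mertk, a receptor for dying cells, had 1.34 in M2. The lipid genes Lpl, Scd1 and Scd2 were lower in M0, at -1.92, -1.44 and -1.39. The M0 calls of this list thus ran both ways, with the exporter and the apolipoprotein higher and these lipid genes lower.

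Of 23 SREBP-2 targets, the cholesterol synthesis and uptake genes that 25-hydroxycholesterol is known to lower, 0 were higher and 4 lower with regorafenib in M0 (median -0.50, with 20 below 0), 1 was lower in M1 (median -0.14) and 1 was lower in M2 (median -0.22, with 19 below 0). The M1 call was Fdps, on 9 against 25 counts. Sqle, the squalene epoxidase, was lower at -1.61 in M0 and -1.07 in M2, and Hsd17b7 and Idi1, both of the same synthesis, were lower in M0 at -1.45 and -1.12. Of 11 genes of cholesterol ester turnover and efflux, 2 were higher and 1 lower in M0 (median 0.23), 0 passed in M1 (median -0.16) and 1 was higher and 1 lower in M2 (median 0.34). The lower call was Soat2 both times, on 6 against 20 counts in M0 and 4 against 12 in M2, where its interval reached from -3.29 to 0.52. Beside Abca1, the lipase gene Pnpla2 was higher in M0 at 1.28.

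Interferon-stimulated genes, the class to which Ch25h is known to belong, were lower too in M0. Of 22 measured, 16 were at least 2-fold lower with regorafenib in M0 and 0 higher (median -1.63, all 22 below 0), beside 10.9% of all genes lower, 0 passed the mark in M1 (median -0.14) and 5 were lower in M2 (median -0.56). Isg15, the ubiquitin-like modifier, Rsad2, or viperin, and Ifit3 had log2 ratios of -2.95, -2.77 and -2.59 in M0, where Ch25h had -3.68. In M2 the lowest of the list were Rsad2, Mx1 and Oasl1 at -1.46, -1.37 and -1.30, where Ch25h had -7.02. Over all genes measured, the median log2 ratio with regorafenib was 0.0050 in M0, -0.020 in M1 and -0.031 in M2.

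**Figure D5:**
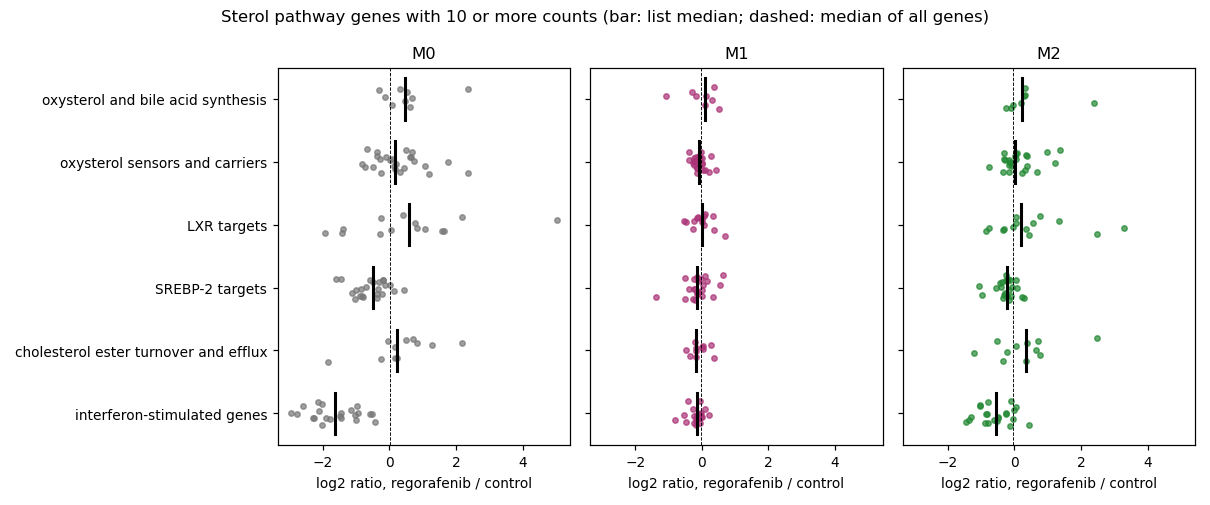
Log2 ratio of regorafenib to control for each gene with at least 10 counts in 6 pathway lists, in M0, M1 and M2. Points are genes with a small vertical scatter for sight, thick bars are list medians and dashed lines are the median of all genes. The interferon-stimulated genes lie lowest in M0 with a median of -1.63, against -0.14 in M1 and -0.56 in M2.

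Across states the interferon-stimulated list and Ch25h were both higher in M1 control, but in M2 control the list was lower and Ch25h was not. Between control libraries 20 of the 22 genes were higher in M1 than in M0 (median 2.42), beside 17.4% of all genes. Isg15 was at 3.79, Isg20 at 3.78 and Ifit1 at 3.45, where Ch25h had 3.06. In M2 control 15 of the 22 were lower than in M0 control (median -1.55), beside 7.61% of all genes. Ifit3 was at -3.13, Mx2 at -2.53 and Ifit2 at -2.48, where Ch25h had 0.49. Between regorafenib libraries, all 22 were higher in M1 (median 3.74), beside 16.3% of all genes, and 5 were lower in M2 (median -0.49), beside 5.18%.

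In M1 control against M0 control, where 17.4% of all genes were higher and 19.7% lower, the SREBP-2 targets had the most lower calls of the sterol lists. Of 23 SREBP-2 targets, 13 were lower and 0 higher (median -1.08, all 23 below 0), with Dhcr7 at -3.09 and Idi1 at -2.38. Of 14 LXR targets 4 were higher and 3 lower (median -0.27), with Abca1 at 4.15 and Mertk at 3.15 but Lpl at -2.98. Of 11 ester and efflux genes 3 were higher and 4 lower (median -0.50), among them the ester hydrolases Nceh1 at -3.28 and Lipa at -2.79. Of 9 synthesis genes 1 was higher and 2 lower (median -0.47), with Ephx1, the microsomal epoxide hydrolase, at -3.77, and of 24 sensors and carriers 2 were higher and 4 lower (median -0.12, or 0.012 by upper quartile scaling), with Osbpl3 at 2.18 and Stard4, a cholesterol carrier, at -2.17.

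In M2 control against M0 control, beside 4.69% of all genes higher and 7.61% lower, 0 of 23 SREBP-2 targets, 0 higher and 1 lower of 14 LXR targets, 0 higher and 1 lower of 11 ester and efflux genes, 1 higher and 1 lower of 8 synthesis genes and 0 higher and 1 lower of 24 sensors passed the mark. Abca1 was lower at -1.83 and Ephx1 higher at 1.35.

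The genes whose pattern over the 6 libraries was most like that of a member were named by Pearson's r of log2(CPM + 1) among the 11312 genes that reached 100 counts somewhere. For Ch25h these were Med21 (r = 0.998), Zfp143, Rwdd4a, Spred1 and Ngdn (r = 0.989 to 0.993), and for Cyp27a1 they were Sgsh, a lysosomal sulfatase (r = 0.9996), Nbdy, Man2b1, a lysosomal mannosidase, Zfp709 and Dnajb14. Pvt1 and mt-Nd1 were nearest to Hsd3b7, Fh1 and Scly to Gpr183, and Zfp560 and Gm45871 to Soat1. This measure ignores the size of a change: Med21 ranged from 11.5 to 25.2 CPM where Ch25h ranged from 0.143 to 110. By the root mean square distance, which keeps size, none of these genes was named, and the nearest to Ch25h were Ccl4, a chemokine (53.5, 6.89, 338, 524, 34.9 and 7.33 CPM in the order above), Ccnd2, Gm34643, Gja1 and Rsad2. The nearest to Cyp27a1 by distance were Man2a2, Selenop, Zfp704, Gprc5c and Deptor. The r values rest on 6 libraries that share their scaling, and 281 genes had r of at least 0.95 with Ch25h. Among the members, r between Ch25h and Cyp27a1 was -0.98, and how many other genes ran as far opposite to either was not counted.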

How the data were processed

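Libraries of BMDM RNA were made with a stranded mRNA kit. The authors deposited raw read counts per gene for 6 libraries in 1 table: by the study's methods and the submitters' processing notes, cutadapt 2.4 trimmed the reads after a FastQC check and STAR 2.7.2a aligned them to GRCm38 and counted them on Gencode M19 genes. The strand column counted is not given in the sources used here. Reads in exons shared by genes can be left out of both genes' counts, which touches Hsd3b7 and Ch25h.

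Gene symbols were taken from the reference table by Ensembl identifier, with version for 53229 and without for 1180, and 37 had no name. All columns were mapped to samples by their labels, 0 unmatched. Counts were scaled by TMM (edgeR 4.0.16, R 4.3.3) over the 6 libraries. A log2 ratio compares scaled counts of 2 libraries (0.5 standing in for a count of 0). Ratios carry 95% conditional exact binomial intervals and levels exact Poisson ones (scipy 1.17.1). Both cover counting error only, as reads carried no molecular identifiers. Genes with at least 10 counts in 1 of the 2 libraries were measured, and those at least 2-fold apart were called higher or lower. The floor was 3 counts. The interval method was checked on simulated data.

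With 1 library per condition, no test between conditions was made. The study used NOISeq without replicates, which simulates its replicates from the library itself, and for that reason it was not used for calls here. Members, gene lists and motifs were chosen with earlier results of these data known. Named genes were the members, in each list and comparison up to 3 genes with the highest and 3 with the lowest ratios, if called and at 100 counts or more in the higher of both libraries (the text gives examples), and the genes nearest in pattern (5 each for Ch25h and Cyp27a1, 2 each for the others); other genes, Gm26902 and those named by distance or at small ratios among them, were chosen after their values were seen. Alternatives were scaling by DESeq2 1.42.0 size factors, total counts or upper quartile, 1 CPM added, minimum counts of 0 or 30, and marks of 1.5-fold and 4-fold. Some marker results are not reported here.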

Additional observations from a re-analysis of the deposited data

Results flagged for a closer look

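Gpr183 and Soat1 had regorafenib to control ratios in opposite directions in different states, with counting intervals on opposite sides of 0. For Gpr183 the log2 ratio was -1.38 in M0 and -0.56 in M2 but 1.10 in M1, where the counts were 48 and 24. For Soat1 the log2 ratio was 0.67 in M0 and 0.21 in M2 but -0.32 in M1, on 11964 and 15982 counts. The difference between states was not tested, since each condition had 1 library.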

How the results depend on the processing

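No paired analysis was possible because the labels give no replicate numbers that pair libraries within a comparison. A fit over the 3 states with state as a block was left out, since the members were chosen with these comparisons known. Of the counts of members called, 101 stayed within 1.5 times under the alternatives and 11 did not. With regorafenib in M0, 2 members were higher at a 1.5-fold mark (Soat1 added) and 1 was lower at a 4-fold mark (Ch25h). In M1, the 2 higher members fell to 0 with 1 CPM added or at a 4-fold mark, and to 1 at a minimum of 30 counts. At the 1.5-fold mark 2 were higher in M1 and 1 in M2 against M0, both control. In M2 against M0 with regorafenib, 0 were higher by total counts, with 1 CPM added or at the 4-fold mark, and 0 were lower with 1 CPM added. Of the members' log2 ratios 119 stayed within their counting intervals and 21 did not; the sign changed for Hsd3b7 alone, in M1 against M0 with regorafenib (-0.30 by total counts). Of list medians 108 stayed and 18 moved, and 9 changed sign under another scaling. Of the genes nearest in pattern, 0 of 5 for Ch25h and 0 of 5 for Cyp27a1 were named again with 0.1 CPM added. The spread between cultures is unknown throughout.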
